A study of Homo sapiens with 4 samples.

Results

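RAB proteins are the largest branch of the RAS-like small GTPases, and 63 protein-coding RAB genes were found among the 67008 genes of a count table from oral cancer cells with and without knockdown of STAU1. A gene was taken as a RAB gene when its symbol was RAB followed by a number and at most 1 letter. Proteins that bind RABs, readthrough genes, pseudogenes and RAB40AL, whose suffix has more than 1 letter, were left out. The study followed circSNX5, a circular RNA, and silenced STAU1, an RNA-binding protein that recognises double-stranded RNA, to ask how it acts on RNA processing. Control cells (Ctrl) carried an shRNA against luciferase (shLuc), and knockdown cells (shSTAU1) carried an shRNA against STAU1. Both groups held 2 libraries, both were infected with virus to deliver the shRNA, their genotype is labelled WT, and 1 shRNA was used per group, so an effect of STAU1 loss and an effect of that shRNA on other transcripts cannot be told apart. Libraries were made from total RNA with an exome capture kit, which pulls down coding transcripts with probes.

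The growth protocol and the design text name SAS, a human tongue squamous carcinoma line, while the source and cell line labels name C3H 10T1/2, a mouse fibroblast line, beside human as the organism. Epithelial markers were abundant. All 10 squamous epithelial markers had a mean over the 4 libraries of 1 CPM (counts scaled by library size) or more, with a summed level of 9563 to 10248 CPM in Ctrl and 9552 to 12774 CPM in shSTAU1. Of 7 fibroblast markers, 2 reached a mean of 1 CPM (COL1A1 and COL1A2), the sum was 17.9 and 22.8 CPM in Ctrl and 11.1 and 10.2 CPM in shSTAU1, and COL3A1, DCN and LUM had at most 1 count in any library. Of 4 immune markers 0 reached a mean of 1 CPM, and their sum was 0.178 and 0.153 CPM in Ctrl and 1.15 and 0.707 CPM in shSTAU1, mostly CD14. Of 3 endothelial markers 2 did, with sums of 7.44 to 18.02 CPM. The part of these lower levels in the results was not tested. The libraries held 32206655 to 36301574 counts. STAU1 itself was at 249 and 251 CPM in Ctrl and at 41.6 and 41.5 CPM in shSTAU1, 16.6% of the Ctrl mean (log2 fold change −2.59 ± 0.13 (SE), adjusted p = 0.00103 by the edgeR quasi-likelihood test, n = 2 per group). Across all genes, 372 of 14303 tested passed an adjusted p of 0.05, which is 2.60%.

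A RAB protein works as a switch. In its GTP-bound form it sits on a given membrane and recruits effectors such as motors, tethers and kinases, and in its GDP-bound form it is pulled off the membrane by a GDP dissociation inhibitor (GDI). Guanine nucleotide exchange factors, many of them DENN domain proteins, load GTP, and GTPase-activating proteins, mostly of the TBC family, end the signal. A RAB is held on its membrane by prenyl lipids that RAB geranylgeranyl transferase adds to cysteines at the very end of the protein. Each member was placed at 1 main step of membrane traffic from textbook knowledge, although many act at several steps.

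These end cysteines can be read from the coding sequence. In the GENCODE 29 transcripts, 20 of the 63 genes ended with cysteine codons at the last and the third-last position, 15 ended with 2 neighbouring cysteine codons, and 15 carried such a pair within the last 5 codons but not at the end. Another 10 had 1 cysteine codon at the fourth-last position, and 1 gene had another single cysteine codon. RAB6C and RAB6D had no cysteine codon among the last 5. The last 5 codons before the stop are shown for the 8 members with an unadjusted p below 0.05, since they cover the 3 common arrangements, with cysteine codons in capitals, 5′ to 3′ on the strand of the gene and with GRCh38 positions.
RAB11A (chr15:65887823-65887837, plus strand): TGCTGTcagaacatc
RAB34 (chr17:28714646-28714660, minus strand): cccacaTGTTGCcca
RAB7A (chr3:128813405-128813419, plus strand): gaaagcTGCagtTGC
RAB3D (chr19:11325401-11325415, minus strand): agcagcTGCagcTGC
RAB3B (chr1:51919930-51919944, minus strand): cagaacTGCtcaTGC
RAB19 (chr7:140426133-140426147, plus strand): acccacTGCactTGC
RAB10 (chr2:26135004-26135018, plus strand): aagagcaaaTGCTGC
RAB29 (chr1:205770345-205770359, minus strand): agctggtccTGCTGC
In RAB11A and RAB34 other residues follow the pair, in RAB10 and RAB29 the pair closes the protein, and in the other 4 a residue stands between the cysteines. As a description with no test, the log2 fold change was positive in 12 of 13 tested genes that end with the pair and 9 of 12 with the pair further in. It was positive in 6 of 8 with a cysteine codon at the fourth-last position, 6 of 14 with the separated cysteines and 2 of 2 with none. The share was 71.4% of all tested RAB genes and 50.4% of all tested genes. The classes also differed in level, with medians in that order of 29.9, 15.3, 15.8, 7.23 and 0.891 CPM.

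Of the 63 RAB genes, 49 had enough reads to be tested and 14 did not. RAB7A, of late endosomes and lysosomes, had the highest level per length, with a mean of 93.0 CPM per kilobase of annotated exon, followed by RAB6A (40.4), which serves traffic within and from the Golgi, and RAB34 (33.3), which positions lysosomes and acts in the primary cilium. Per kilobase of coding sequence RAB7A and RAB6A were again first and second, and RAB34 was ninth, so the order below the top depended on the length used. These levels compare counts after probe capture, and the part of the probes in the order of the genes was not tested. Without a length correction 5 tested genes had a mean of at least 100 CPM (RAB7A, RAB6A, RAB18, RAB21 and RAB34), 24 were between 10 and 100 CPM and 20 were below 10 CPM. The 5 genes made up 52.7% of the summed CPM of the tested RAB genes.

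**Figure D1:**
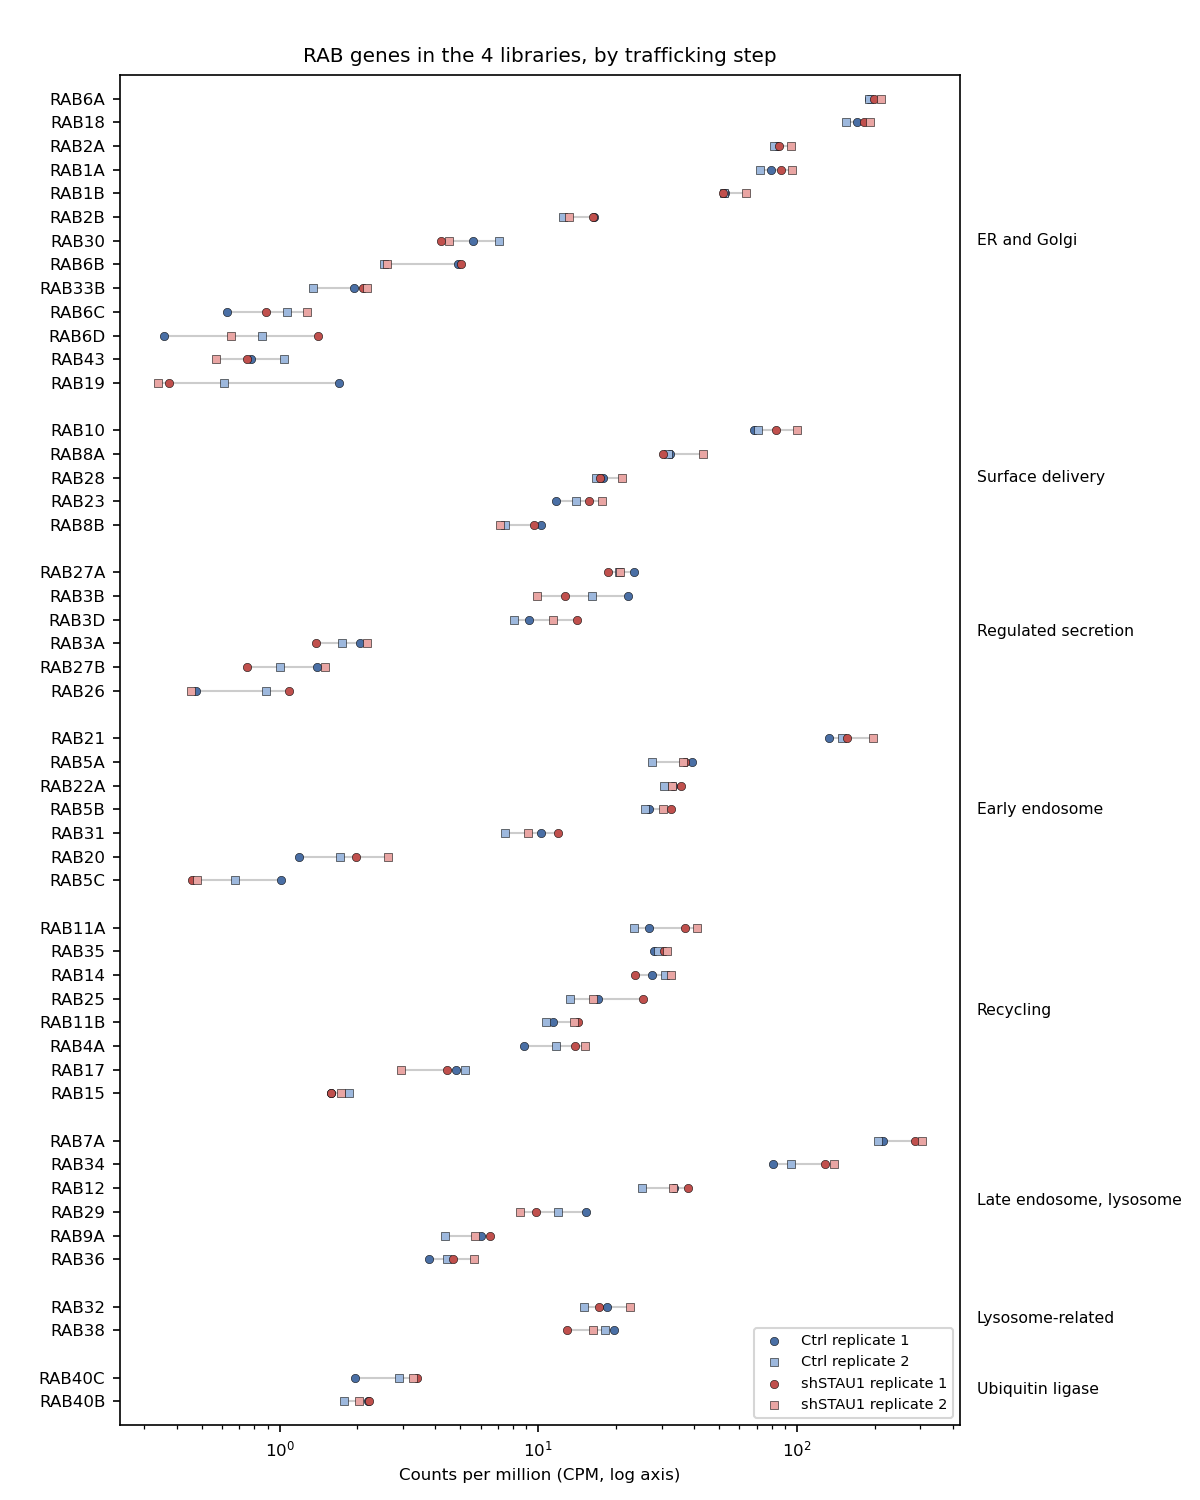
CPM (log axis) of the 49 tested RAB genes in each of the 4 libraries, grouped by trafficking step and ordered by mean CPM within a step. Circles are replicate 1 and squares replicate 2, Ctrl in blue and shSTAU1 in red, and RAB7A, RAB6A, RAB18, RAB21 and RAB34 lie farthest to the right.

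Of the 49 tested RAB genes, 0 passed an adjusted p of 0.05 by the edgeR quasi-likelihood test, against 2.60% of all tested genes. At an unadjusted p below 0.05 there were 8 (5 higher and 3 lower in shSTAU1), or 16.3%, against 24.5% of all tested genes. Limma-voom also called 0 at an adjusted p of 0.05 (background 2.54%). DESeq2 called 4 of the 44 RAB genes to which it gave an adjusted p (background 12.0%), RAB7A, RAB34 and RAB11A higher and RAB3B lower. The edgeR test at an adjusted p below 0.10 called RAB34, RAB7A and RAB11A (background 11.1%). With 2 libraries per group, the unadjusted 95% interval of a RAB gene's log2 fold change reached a median of 0.51 to either side. The adjusted threshold is stricter, and RAB3B (−0.76), RAB11A (0.64) and RAB34 (0.61) lay beyond 0.51 and did not pass it by edgeR. Smaller differences, and some larger ones, could thus go undetected for a typical member. The width differed between genes, and the unadjusted interval lay above 0 for RAB7A (0.49, 0.21 to 0.77) and RAB10 (0.39, 0.056 to 0.73).

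Most members lay on the higher side. The log2 fold change was above 0 in 35 of 49 tested RAB genes (71.4%), with a median of 0.18, while it was above 0 in 50.4% of all tested genes (median 0.01) and in 53.0% of the tested protein-coding genes (median 0.03). Where the mean reached 10 CPM, a limit set after the values were seen, 24 of 29 RAB genes were above 0 (82.8%), against 57.6% of all such genes. Both shSTAU1 libraries were above both Ctrl libraries for 19 RAB genes (38.8%), against 28.5% of all tested genes. Both were below for 8 (16.3%), against 28.0%. These are descriptions of the list and no test was made of it. The median was 0.20 after correction for transcript length and GC content, where all tested genes had a median of 0.06, and across the 49 genes the log2 fold change had a Spearman correlation of −0.10 with transcript length (all tested protein-coding genes −0.22, points that share the same 4 libraries). In bulk libraries a change in RNA per cell and a change in the mix of cells cannot be told apart.

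**Figure D2:**
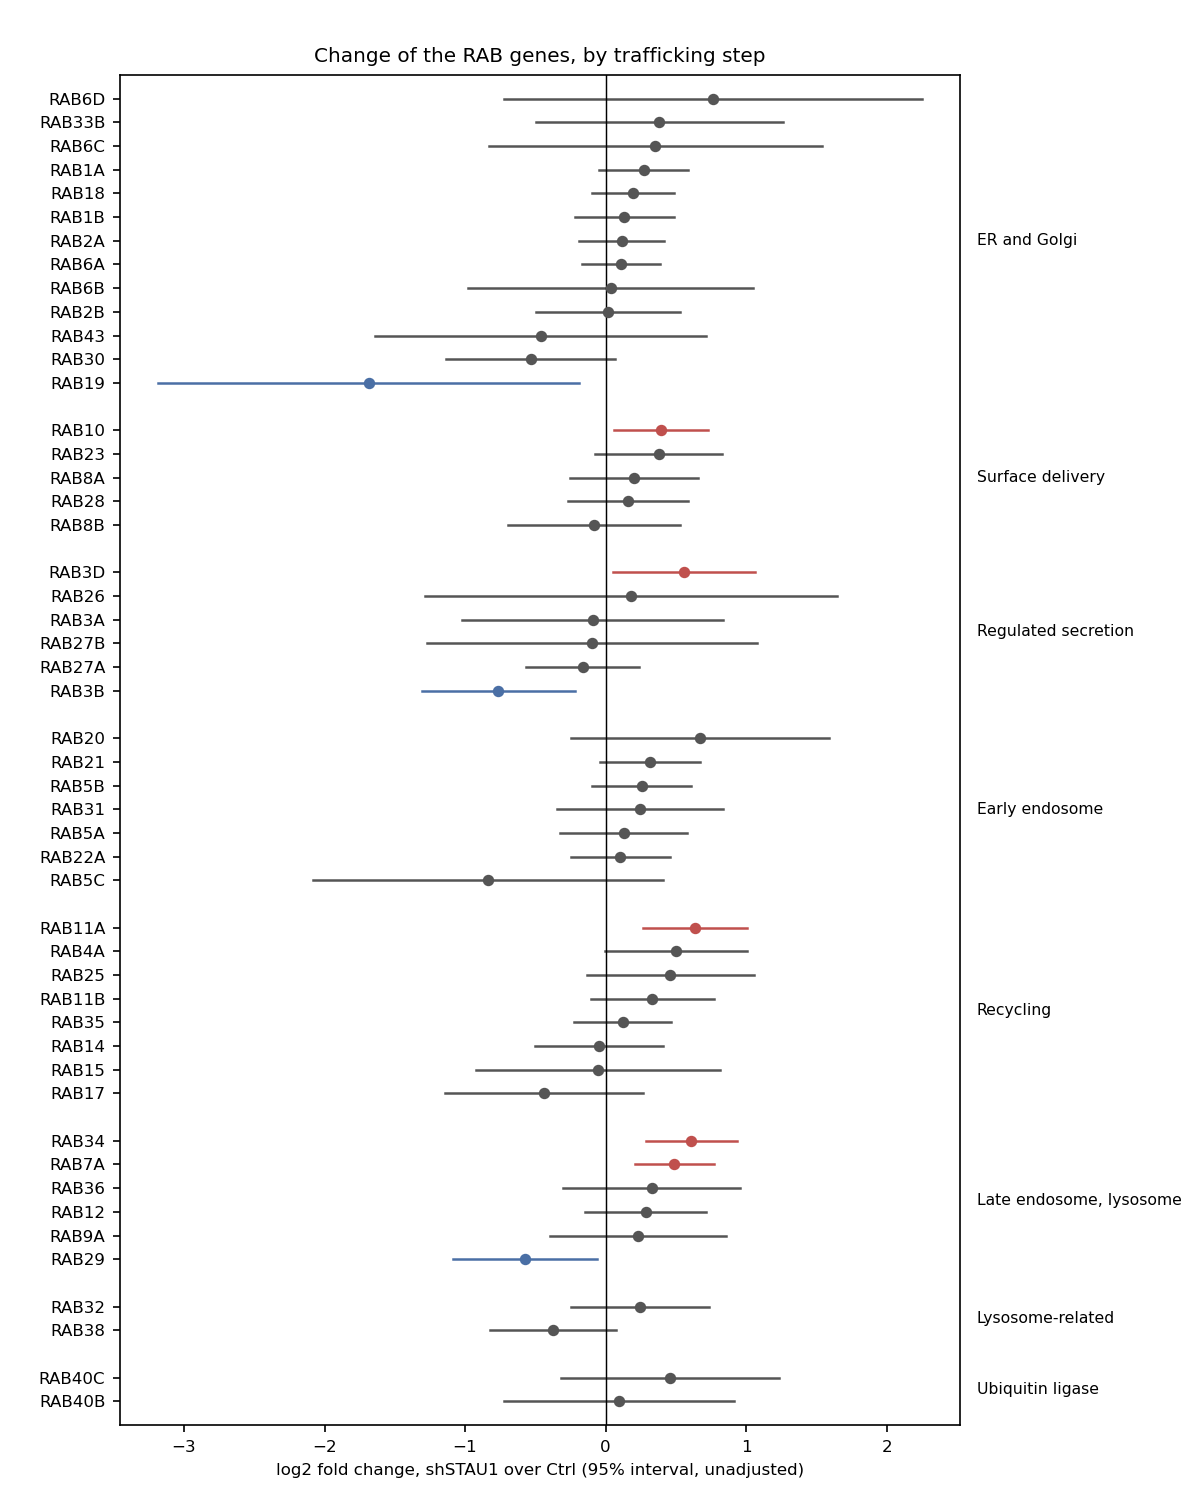
Log2 fold change of shSTAU1 over Ctrl for the 49 tested RAB genes with its unadjusted 95% interval, grouped by trafficking step. The interval lies above 0 in red (RAB10, RAB3D, RAB11A, RAB34 and RAB7A), below 0 in blue (RAB19, RAB3B and RAB29) and spans 0 in grey. No gene passed an adjusted p of 0.05.

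For transport between the endoplasmic reticulum and the Golgi and within the Golgi, 13 of 15 genes were tested, 10 with a positive and 3 with a negative log2 fold change (median 0.11), and the most abundant members differed little between the groups. RAB6A was at 190.0 and 190.5 CPM in Ctrl and at 199 and 211 CPM in shSTAU1 (log2 fold change 0.11 ± 0.12, adjusted p = 0.61 by edgeR). The shSTAU1 libraries were the higher ones, by less than the spread the test allows for. RAB18, which acts at lipid droplets and the endoplasmic reticulum and was named after its values were seen, was at 171 and 155 CPM in Ctrl and at 182 and 192 CPM in shSTAU1 (0.19 ± 0.13). RAB1A and RAB1B, the pair that starts transport out of the endoplasmic reticulum, showed log2 fold changes of 0.27 ± 0.14 and 0.13 ± 0.15. RAB1A was at 79.6 and 71.7 CPM in Ctrl and 86.8 and 96.01 CPM in shSTAU1, without overlap. RAB1B was at 52.7 and 52.4 CPM in Ctrl and 51.8 and 63.4 CPM in shSTAU1, with the groups overlapping.

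The extremes of this step were genes of few reads. RAB19 had 57 and 20 counts in Ctrl and 13 and 12 counts in shSTAU1, or 1.70 and 0.611 CPM against 0.373 and 0.340 CPM (log2 fold change −1.68 ± 0.64, adjusted p = 0.163 by edgeR). The higher Ctrl library set much of this difference, and the value was −0.79 without Ctrl replicate 1. RAB6D, at 0.357 and 0.855 CPM in Ctrl and 1.41 and 0.651 CPM in shSTAU1, had the highest log2 fold change of the step (0.76 ± 0.64), with overlapping groups and values from 0.10 without shSTAU1 replicate 1 to 1.52 without Ctrl replicate 2, and RAB6C was at 0.624 and 1.07 CPM against 0.890 and 1.27 CPM. The RAB6 group thus spanned a wide range of levels. RAB6B, the form known from neurons, was at 4.91 and 2.54 CPM in Ctrl and 5.03 and 2.60 CPM in shSTAU1, where the libraries of the same number were alike and those of the same group were not. RAB30, named after its values were seen, was lower in both shSTAU1 libraries (4.22 and 4.53 CPM against 5.62 and 7.06 CPM, log2 fold change −0.53 ± 0.26).

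For delivery to the plasma membrane, junctions and the primary cilium, 5 of 6 genes were tested and 4 had a positive log2 fold change (median 0.20). RAB10, which brings vesicles such as those with glucose transporters to the surface, was both the most abundant of them and the one with the highest log2 fold change. It was at 68.5 and 71.0 CPM in Ctrl and 83.0 and 99.8 CPM in shSTAU1, so the groups did not overlap (log2 fold change 0.39 ± 0.14, adjusted p = 0.15 by edgeR). Without 1 library the adjusted p by edgeR ran from 0.0142, without shSTAU1 replicate 1, to 0.551. RAB8A, a close relative that acts in polarised delivery and ciliary traffic, was at 32.4 and 31.7 CPM in Ctrl and 30.3 and 43.5 CPM in shSTAU1. Its shSTAU1 libraries lay on both sides of Ctrl, and its log2 fold change was 0.20 ± 0.20. RAB8B, the lowest of the step, was at 10.3 and 7.42 CPM in Ctrl and 9.62 and 7.10 CPM in shSTAU1 (−0.08 ± 0.26).

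Docking and fusion of secretory granules was the step with the most members below 0. Of 9 genes, 6 were tested, 2 above and 4 below 0 (median −0.10), and the summed level was 59.0 and 48.3 CPM in Ctrl and 48.7 and 46.1 CPM in shSTAU1. Of the 3 tested RAB3 genes, which prime vesicles for calcium-triggered release, RAB3B and RAB3D went in opposite directions and RAB3A differed little. RAB3A, named after its values were seen, was at 2.05 and 1.74 CPM in Ctrl and 1.38 and 2.18 CPM in shSTAU1. Its groups overlapped (log2 fold change −0.09 ± 0.40). RAB3B, on chromosome 1 (51907956-51990764, minus strand), was at 22.3 and 16.1 CPM in Ctrl and at 12.7 and 9.90 CPM in shSTAU1. Both shSTAU1 libraries were below both Ctrl libraries, which themselves differed (log2 fold change −0.76 ± 0.23, adjusted p = 0.104 by edgeR, 0.0353 by DESeq2). Without 1 library the adjusted p by edgeR ran from 0.00345, without shSTAU1 replicate 1, to 0.481, without Ctrl replicate 1. RAB3D, the form of exocrine and other non-neuronal secretory cells, was at 9.25 and 8.03 CPM in Ctrl and 14.1 and 11.4 CPM in shSTAU1, again without overlap (0.56 ± 0.22, adjusted p = 0.168 by edgeR). RAB27A, which docks granules and exosome-bearing endosomes, was the most abundant member, at 23.5 and 20.6 CPM in Ctrl and 18.7 and 20.7 CPM in shSTAU1 (−0.16 ± 0.17). RAB27B was at 1.40 and 1.01 CPM in Ctrl and at 0.747 and 1.4997 CPM in shSTAU1 (−0.10 ± 0.50). Neither RAB27 gene separated the groups.

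All 7 early endosome genes were tested, 6 above and 1 below 0 (median 0.25). RAB21, which carries integrins through early endosomes, was at 134 and 149.8 CPM in Ctrl and 156 and 197 CPM in shSTAU1 (log2 fold change 0.32 ± 0.15, adjusted p = 0.247 by edgeR). The log2 fold change was 0.47 without shSTAU1 replicate 1 (adjusted p = 0.017 by edgeR), 0.12 without shSTAU1 replicate 2 (0.66) and 0.56 after the length and GC correction (0.0828). The 2 shSTAU1 libraries differed from each other by more than the nearest Ctrl and shSTAU1 libraries did. The RAB5 proteins drive fusion of early endosomes. RAB5A was at 39.3 and 27.6 CPM in Ctrl and 36.9 and 36.2 CPM in shSTAU1 (0.13 ± 0.19), within the spread of Ctrl, and RAB5B was at 26.7 and 25.9 CPM in Ctrl and 32.5 and 30.3 CPM in shSTAU1 (0.26 ± 0.15). RAB5C was counted at 1.01 and 0.672 CPM in Ctrl and 0.460 and 0.481 CPM in shSTAU1, from 16 to 34 counts per library (−0.84 ± 0.53). RAB20, a RAB of maturing phagosomes, had the highest log2 fold change of the step, 0.67 ± 0.39, at 1.19 and 1.71 CPM in Ctrl and 1.98 and 2.63 CPM in shSTAU1.

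Of the 9 recycling genes, 8 were tested, 5 above and 3 below 0 (median 0.23), and RAB11A was both the most abundant and the one with the highest log2 fold change. RAB11A, on chromosome 15 (65726054-65891991, plus strand), marks the recycling endosome. It was at 26.8 and 23.4 CPM in Ctrl and at 37.1 and 41.0 CPM in shSTAU1. The groups were well apart (log2 fold change 0.64 ± 0.16, adjusted p = 0.0713 by edgeR, 0.0191 by DESeq2, and 0.0491 by edgeR after the length and GC correction). Without 1 library the adjusted p by edgeR ran from 0.00498, without shSTAU1 replicate 1, to 0.373, without Ctrl replicate 2. Its paralogs lay on the same side. RAB11B was at 11.4 and 10.8 CPM in Ctrl and 14.2 and 13.7 CPM in shSTAU1 (0.33 ± 0.19). RAB25, the epithelial member of the group, was at 17.1 and 13.3 CPM in Ctrl and at 25.5 and 16.3 CPM in shSTAU1 (0.46 ± 0.25), where shSTAU1 replicate 2 fell between the Ctrl libraries. Its log2 fold change was 0.73 without that library (adjusted p = 0.0319 by edgeR) and 0.10 without shSTAU1 replicate 1 (0.811). RAB4A, which acts in fast recycling and was named after its values were seen, was at 8.80 and 11.7 CPM in Ctrl and 13.9 and 15.2 CPM in shSTAU1 (0.50 ± 0.22). RAB17, another epithelial RAB, was the lowest of the step, at 4.82 and 5.19 CPM in Ctrl and 4.45 and 2.94 CPM in shSTAU1 (−0.44 ± 0.30).

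Late endosomes and lysosomes held RAB34 and RAB7A, which with RAB11A of the recycling step were the members nearest to the threshold by edgeR. Only 6 of 12 genes were tested, 5 above and 1 below 0 (median 0.31), and their summed level was 354 and 347 CPM in Ctrl and 474 and 496 CPM in shSTAU1, mostly RAB7A and RAB34. RAB7A, on chromosome 3 (128726122-128814796, plus strand), directs late endosomes to fuse with lysosomes and autophagosomes. It was at 215 and 206 CPM in Ctrl and at 286 and 304 CPM in shSTAU1. Both shSTAU1 libraries exceeded both Ctrl libraries by more than the libraries of a group differed (log2 fold change 0.49 ± 0.12, adjusted p = 0.0712 by edgeR, 0.0233 by DESeq2). Without 1 library the adjusted p of RAB7A by edgeR ran from 0.00575, without shSTAU1 replicate 1, to 0.39, without Ctrl replicate 2. RAB34, on chromosome 17 (28714281-28718429, minus strand), was at 80.6 and 94.8 CPM in Ctrl and at 129 and 139 CPM in shSTAU1. Of all members it had the smallest adjusted p (0.61 ± 0.14, adjusted p = 0.0631 by edgeR, 0.00858 by DESeq2), and its adjusted p by edgeR was 0.000923 and 0.0253 without shSTAU1 replicates 1 and 2, and 0.356 and 0.147 without Ctrl replicates 1 and 2. RAB29, a regulator of LRRK2 at the Golgi and stressed lysosomes, went the other way. It was at 15.3 and 11.9 CPM in Ctrl and 9.82 and 8.49 CPM in shSTAU1, without overlap (−0.57 ± 0.22, adjusted p = 0.165 by edgeR). RAB12, which acts in lysosomal sorting of surface receptors and was named after its values were seen, was at 33.4 and 25.1 CPM in Ctrl and 37.97 and 33.3 CPM in shSTAU1, with the groups overlapping.

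Both lysosome-related organelle genes were tested. RAB32 and RAB38, which sort enzymes to melanosomes and related organelles, had log2 fold changes of 0.25 ± 0.21 and −0.37 ± 0.19. RAB32 was at 18.5 and 14.997 CPM in Ctrl and 17.1 and 22.7 CPM in shSTAU1, with overlap, and RAB38 was at 19.7 and 18.2 CPM in Ctrl and 12.9 and 16.3 CPM in shSTAU1, without overlap. Of the 3 RAB40 genes, whose SOCS box joins them to Cullin-5 ubiquitin ligases, 2 were tested. RAB40C was at 1.96 and 2.90 CPM in Ctrl and 3.39 and 3.28 CPM in shSTAU1 (0.46 ± 0.33), and RAB40B at 2.20 and 1.77 CPM against 2.21 and 2.04 CPM (0.10 ± 0.35).

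**Figure D3:**
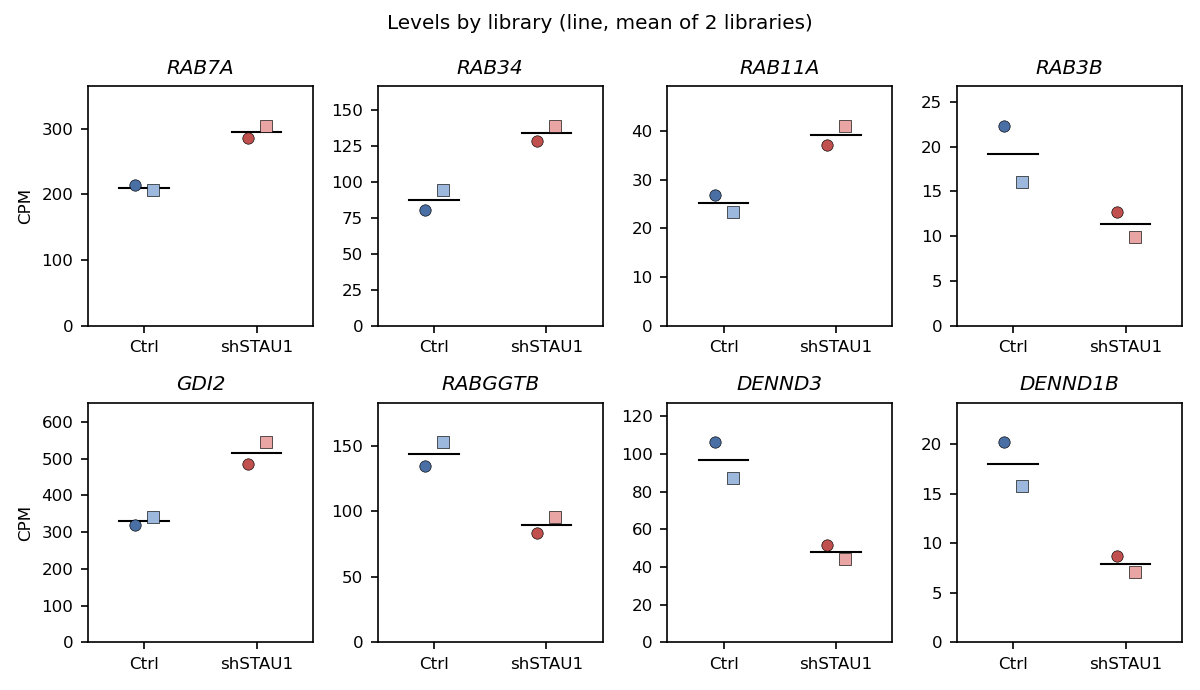
CPM of 4 RAB genes (upper row) and 4 genes that act on RAB proteins (lower row) in each library, with circles for replicate 1, squares for replicate 2 and lines at the group means. The groups do not overlap in any of the 8 panels, and of these genes GDI2, DENND3 and DENND1B passed an adjusted p of 0.05.

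The 14 genes that were not tested had few or no reads. RAB33A, RAB41, RAB3C, RAB4B, RAB39A and RAB39B had 0 counts in all 4 libraries, which allows up to 3 counts per library. RAB24, RAB7B, RAB42 and RAB44 had at most 3 counts in any library, and RAB9B at most 5. RAB13, a RAB of epithelial junctions, had 3 and 8 counts in Ctrl and 7 and 5 counts in shSTAU1. RAB37 had 0 counts in both Ctrl libraries and 7 and 1 counts in shSTAU1, and RAB40A had 4 and 0 counts in Ctrl and 4 and 19 counts in shSTAU1. These floors and differences cover counting error only.

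Some RAB genes share much of their sequence with another gene. Every 50-base word of a member's GENCODE 29 transcript was looked up in the transcripts of all other genes. In 42 of the 63 members less than 1% of the words were shared. In 7 members at least 30% were shared, a limit set after the values were seen, and these had at most 49 counts in any library, while members below the limit reached 10747 counts. Low counts were also found without shared sequence, since 12 of the other 56 members had at most 49 counts and 10 of these shared no word. RAB43 shared 90.9% of its words with other genes, among them the readthrough gene ISY1-RAB43, RAB24 shared 69.4% with MXD3, and RAB4B shared 66.0% with RAB4B-EGLN2 and MIA-RAB4B. RAB13 (56.3%) and RAB5C (36.2%) shared theirs with ENSG00000285641 and ENSG00000267261, which overlap them on the same strand. RAB6C (55.8%) and RAB6D (55.0%) shared theirs with each other and with RAB6A, of whose words 21.6% were shared. The readthrough genes and both unnamed genes had 0 counts in all 4 libraries, and MXD3 had 54 to 60. How reads that match more than 1 gene were counted is not given in the sources used here, so the levels of these 7 members are uncertain and whether they are expressed at a low level was not tested.

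**Figure D4:**
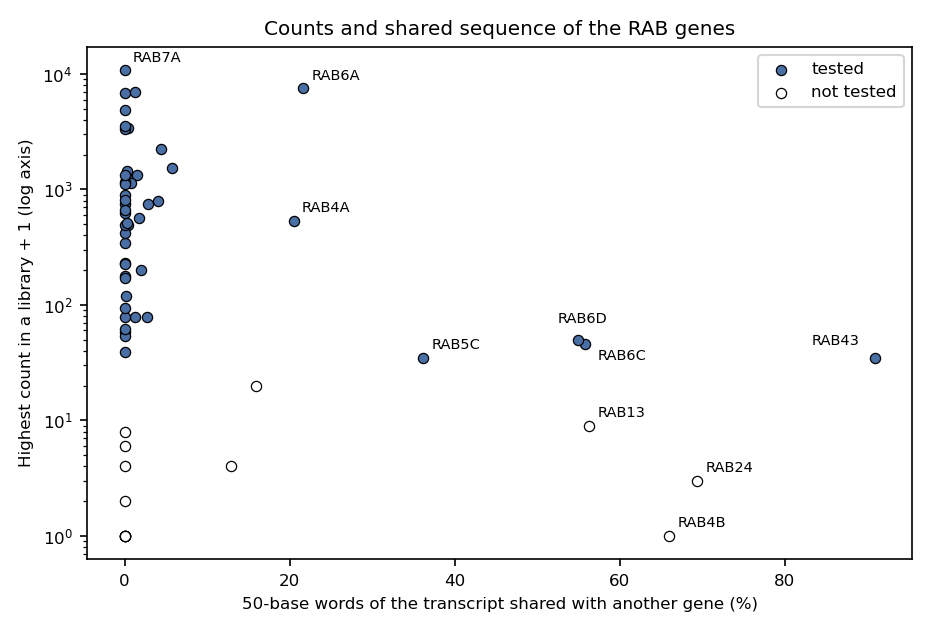
Percentage of a member's 50-base transcript words that occur in another gene (horizontal axis) against its highest count in a library plus 1 (log axis) for the 63 RAB genes. Filled points were tested and open points were not. The 7 members at 30% or more had at most 49 counts in any library, as had 12 of the other 56.

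The proteins that load, unload and anchor RABs were taken from a list of 146 genes, of which 132 were tested. 3 passed an adjusted p of 0.05 (2.60% of all tested genes did), 1 higher and 2 lower in shSTAU1. At an unadjusted p below 0.05 there were 13 higher and 21 lower, or 25.8% of the 132, close to the 24.5% of all tested genes. The median log2 fold change of the list was 0.02.

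Among the proteins that deliver and anchor RABs, GDI2, the widely expressed GDI, rose. GDI2 was at 319 and 340.1 CPM in Ctrl and at 485 and 544 CPM in shSTAU1, with the groups far apart (log2 fold change 0.64 ± 0.13, adjusted p = 0.0473 by edgeR). The call was lost without either Ctrl library (adjusted p = 0.256 and 0.175), with no filter on low counts (0.116) and with library size in place of TMM (0.0534). RABGGTB, the catalytic subunit of RAB geranylgeranyl transferase that acts on the cysteines shown above, was at 134 and 152 CPM in Ctrl and at 83.8 and 95.8 CPM in shSTAU1 (−0.68 ± 0.14, adjusted p = 0.0522 by edgeR). RABGGTB and the other members of this paragraph but GDI2 were named after their values were seen. RABGGTA, the other subunit, was listed at 0 counts in all 4 libraries, and whether it is expressed was not tested. The escort proteins CHM and CHML, which present new RABs to the enzyme, had log2 fold changes of 0.11 ± 0.16 and −0.06 ± 0.14.

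Of 38 tested exchange factors, 2 passed the threshold, both lower in shSTAU1. Of all tested genes 2.60% passed, 161 higher and 211 lower. At an unadjusted p below 0.05, 7 were lower and 3 higher, or 26.3%, near the 24.5% of all tested genes. DENND3, which activates RAB12, was at 106 and 87.3 CPM in Ctrl and at 51.5 and 44.1 CPM in shSTAU1 (log2 fold change −1.02 ± 0.16, adjusted p = 0.0357 by edgeR). DENND1B, which activates RAB35, was at 20.2 and 15.8 CPM in Ctrl and at 8.76 and 7.16 CPM in shSTAU1 (−1.18 ± 0.22, adjusted p = 0.0422 by edgeR). Neither gene's groups overlapped. Without Ctrl replicate 1 the adjusted p was 0.0679 for DENND3 and 0.145 for DENND1B, and with no filter it was 0.0989 and 0.109. The RABs these factors act on lay slightly above 0, RAB12 at 0.28 ± 0.19 and RAB35 at 0.12 ± 0.15, and RAB35, named after its values were seen, was at 28.1 and 29.1 CPM in Ctrl and 30.7 and 31.5 CPM in shSTAU1.

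Of 37 GTPase-activating proteins and 51 effectors tested, 0 passed an adjusted p of 0.05 by edgeR (background 2.60%) and 0 by limma-voom (background 2.54%). DESeq2 called 2 and 3 (background 12.0%). At an unadjusted p below 0.05, 3 GTPase-activating proteins were higher and 2 lower (13.5%), and 6 effectors were higher and 10 lower (31.4%), beside 24.5% of all tested genes. Effectors of RAB3 and RAB27 proteins, named after their values were seen, were among them on both sides. The synaptotagmin-like proteins, which tether RAB27-bearing vesicles to the plasma membrane, lay on both sides. SYTL5 was at 1.90 and 1.37 CPM in Ctrl and 0.373 and 0.368 CPM in shSTAU1 (log2 fold change −2.13 ± 0.49, adjusted p = 0.0635 by edgeR), and SYTL2 at 8.53 and 11.2 CPM against 5.34 and 5.26 CPM (−0.89 ± 0.24). SYTL4 was at 2.32 and 2.63 CPM in Ctrl and 1.44 and 0.764 CPM in shSTAU1 (−1.17 ± 0.43), and SYTL1 had a log2 fold change of −0.04 ± 0.24. SYTL3 was at 5.95 and 8.86 CPM in Ctrl and 11.2 and 11.9 CPM in shSTAU1 (0.64 ± 0.25). RIMS2, a RAB3 effector of the release site, was at 5.95 and 4.21 CPM in Ctrl and 12.6 and 11.1 CPM in shSTAU1 (1.22 ± 0.25, adjusted p = 0.051 by edgeR). None of these passed the threshold.

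STAU1 binds RNA, often in 3′ untranslated regions, and the words AAGAGAA and AGAGAAA had been picked out in earlier work on these same libraries for genes that were lower in shSTAU1, so they give no independent support here. They were searched on the transcript strand only, and they overlap each other within AAGAGAAA. At least 1 of them was in the 3′ untranslated region of 22 of 49 tested RAB genes (44.9%), against 33.1% of 11828 tested protein-coding genes, whose untranslated regions had a median of 1110 bases against 2176 in the RAB genes. RAB genes with a word had a median log2 fold change of 0.11 and those without had 0.19, while all genes had −0.06 with and 0.08 without. After the length and GC correction the order of the RAB medians turned, to 0.21 with and 0.20 without a word. All genes kept their order under that correction, at 0.03 with and 0.11 without. RAB3B had 15 matches in its long region of 11971 bases, where overlapping words were counted separately. For comparison, RAB6C had 2 in 1858 bases and RAB21 had 4 in 14612 bases. Whether 15 is more than the length gives was not tested. The first AAGAGAAA in the 3′ untranslated region of the only members with an unadjusted p below 0.05 that hold it, RAB3B, which was lower, and RAB11A, which was higher, is shown in capitals.
RAB3B (chr1:51919278-51919307, minus strand): gaaacacacttAAGAGAAAaggattggccg
RAB11A (chr15:65889745-65889774, plus strand): agtaaggagaaAAGAGAAAaactaaatagt
RAB7A and RAB34 held neither word. A match is a run of letters in an annotated transcript, and binding of STAU1 was not measured in these libraries.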

How the data were processed

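RNA was sequenced in 2 Ctrl and 2 shSTAU1 libraries, and the labels do not say whether replicates came from separate infections, so p-values measure the spread between these libraries. The authors deposited whole-number read counts per gene without normalization. The submitters' processing notes name hg38 and Partek, and the aligner, annotation and strand setting are not given in the sources used here. Of the 67008 versioned Ensembl identifiers, 58561 were in GENCODE 29 (GRCh38), which supplied positions, transcripts and untranslated regions and may not be the authors' release. Each member's transcript is the principal isoform where 1 is tagged.

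The fits used edgeR 4.0.16 under R 4.3.3 (filterByExpr defaults, 14303 genes, TMM, quasi-likelihood test, Benjamini-Hochberg over all tested genes, threshold 0.05). CPM is the count scaled to the TMM-adjusted library size. Library totals were 32206655 to 36301574 counts, the biological coefficient of variation was 19.1%, and no pair of replicates agreed within sampling noise (chi-square divided by its degrees of freedom, 16.7 in Ctrl and 39.7 in shSTAU1). With 2 libraries per group a permutation test cannot go below p = 0.333. Alternatives were DESeq2 1.42.0, limma-voom (limma 3.58.1), other scalings, no filter, a replicate block, a length and GC correction, other thresholds and leaving out each library. The models were tested on simulated counts.

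The RAB genes, steps and regulators were chosen with earlier results of these data known. Genes named are, per step, the highest, lowest and most abundant tested RAB, the RAB1, RAB5, RAB6, RAB8, RAB11/RAB25, RAB27 and RAB32/RAB38 paralogs, any RAB or regulator past the threshold and STAU1, beside the members that were not tested. Others are said to be named after their values were seen. 1 gene of the regulator list is not reported here.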

Additional observations from a re-analysis of the deposited data

How the results depend on the processing

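STAU1 fell under every alternative fit, from −2.61 to −2.58 without 1 library. The RAB genes past the threshold, 0 as reported, numbered 4 with DESeq2 (3 higher, 1 lower), 1 after the length and GC correction (1 higher), 3 at an adjusted p below 0.10 (3 higher), 4 where fold change passed 1.5 and unadjusted p 0.05 (2 higher, 2 lower) and 0 to 6 without 1 library (0 to 5 higher, 0 to 1 lower). Limma-voom, both other scalings and no filter called 0. Regulators and effectors, 3 as reported, numbered 11 with DESeq2, 5 after the length and GC correction, 0 with no filter, 9 at 0.10, 15 by the fold criterion and 0 to 23 without 1 library, and all genes, 372 as reported, 1449, 11 with no filter, 1585, 2098 and 214 to 2625. Leaving out a shSTAU1 library leaves the spread to the Ctrl pair. For the length and GC correction the number of all genes past the threshold is not given here, so the 1 and 5 lack a background. The median log2 fold change of the RAB genes stayed above 0, from 0.11 to 0.20 without 1 library, the lowest without Ctrl replicate 2.

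The labels do not say what a shared replicate number stands for. Same-numbered libraries deviated together with a correlation of 0.27 over all tested genes, from 2 pairs. With the replicate number as a block 11 of 49 RAB genes (8 higher, 3 lower), 40 of 132 regulators and effectors and 4087 of 14303 genes passed. With the block and the length and GC correction the numbers were 13 (10 higher, 3 lower), 41 and 4147. In both fits the share that passed was smaller among the RAB genes than among all tested genes.

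Small changes turned direction. RAB6B was −0.014 with library size in place of TMM, and RAB8B and RAB27B were 0.056 and 0.073 after the length and GC correction and 0.055 and 0.022 with the block as well. Without 1 library RAB8B ran from −0.32 to 0.16, RAB27B from −0.70 to 0.32, RAB40B from −0.051 to 0.25, RAB6B from −0.52 to 0.57, RAB5A from −0.10 to 0.39, RAB1B from −0.039 to 0.27 and RAB8A from −0.10 to 0.44. The cause was not tested.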
